A study of Mus musculus with 10 samples.

Results

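The 44 genes described here encode the parts of the cyclic AMP pathway that were chosen by name: 7 adenylyl cyclases, 15 phosphodiesterases, 7 protein kinase A (PKA) subunits and inhibitor, 9 A-kinase anchoring proteins (AKAPs) and 6 other effectors and factors. They are 44 of the 51789 genes in the table of counts, and each symbol was matched to its Ensembl identifier through the GENCODE M21 annotation. All 44 passed the filter on low counts. RNA came from cardiomyocytes isolated 4 days after surgical myocardial infarction (MI), from 5 non-transgenic littermate control mice (NLC-MI) and 5 mice with cardiomyocyte-specific transgenic overexpression of GRK5 (TgGRK5-MI), with 1 library per mouse. Both groups had MI, so no library shows the cells without infarction. GRK5 is a kinase of G protein-coupled receptors, and the comparison asks what its excess changes in the transcripts of the infarcted heart's myocytes. The study used young adult mice of both sexes, the labels give neither age nor sex of a library, and the promoter that drives the transgene is not named in the sources used here.

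In cardiomyocytes, adenylyl cyclases at the membrane make cyclic AMP when β-adrenergic receptors activate the stimulatory G protein. Cyclic AMP releases the catalytic subunits of PKA from its regulatory subunits, and PKA phosphorylates channels, calcium release proteins and contractile proteins, which speeds and strengthens the beat. Phosphodiesterases break cyclic nucleotides down, AKAPs hold PKA and its partners in place, and Epac proteins and CREB family factors carry the signal to small G proteins and to genes.

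The libraries held 7968779 to 23381527 counts, and the 3 shallowest (NLC-MI 3, TgGRK5-MI 3 and TgGRK5-MI 4) stood apart on the first principal component, which held 43.9% of the variance. A count of 3, taken as the floor, was worth 0.121 to 0.393 CPM (counts relative to library size, after edgeR's TMM factors). Grk5, the check of the labels, averaged 60.4 ± 9.50 CPM over the 5 NLC-MI libraries (SD), against 1222 ± 472 CPM over the 5 of TgGRK5-MI, without overlap. The 8 cardiomyocyte markers summed to 44538 to 115980 CPM, and transcripts of other cells were present: fibroblast markers summed to 4078 to 24895 CPM, macrophage markers to 651 to 2307 CPM and endothelial markers to 784 to 1595 CPM.

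Of the 44 genes, 6 differed between TgGRK5-MI and NLC-MI at an unadjusted p under 0.05 (edgeR's quasi-likelihood test), which is 13.6% of the genes beside 3.85% of the 15232 genes tested. The cyclases Adcy6 and Adcy9 and the phosphodiesterase Pde3a, 3 genes, were lower in TgGRK5-MI, where 2.08% of all genes tested were lower. The phosphodiesterases Pde7a and Pde8a and the PKA regulatory subunit Prkar1b were higher, 3 genes, where 1.77% of all genes tested were higher. With library size alone as the scaling, the split was 2 higher and 4 lower. None of the 44 passed the study's threshold of an adjusted p under 0.10 (0 by edgeR and 0 by DESeq2), which 0.0788% of all genes tested passed by edgeR. The median log2 fold change was -0.04 over the 44 genes and 0.00 over all genes tested. In bulk RNA, fewer cells of a type and less RNA per cell cannot be told apart.

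**Figure D1:**
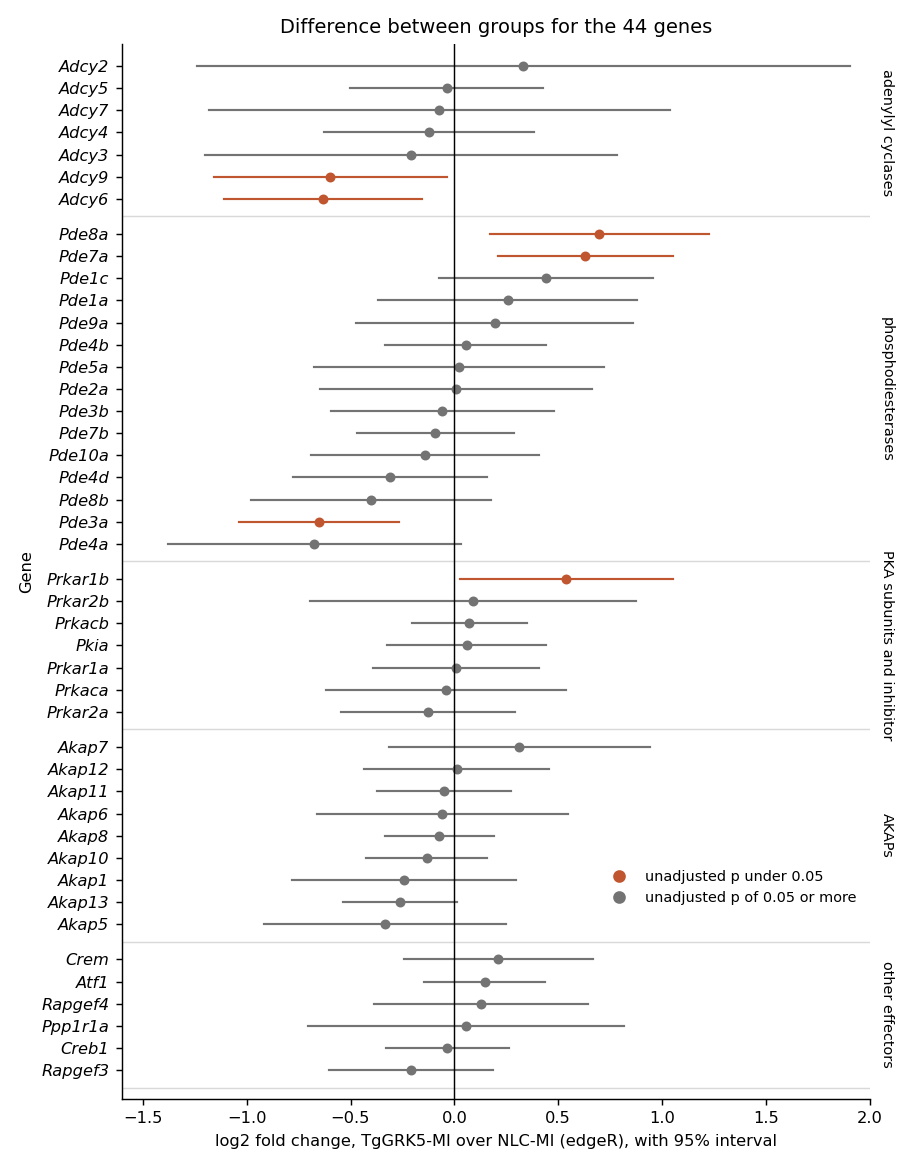
Difference between TgGRK5-MI and NLC-MI for each of the 44 genes, as edgeR's log2 fold change (points) with its 95% interval (lines), ordered by size within each class. The intervals of 6 genes, drawn in orange, do not reach 0: Adcy6, Adcy9 and Pde3a on the lower side, Pde7a, Pde8a and Prkar1b on the higher side.

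The enzyme that makes cyclic AMP came in 7 forms. Adcy6 and Adcy5, the main cyclases of the working heart muscle, had the highest levels per length, with mean RPKM (CPM per kilobase of exon) of 19.8 and 9.16 over the 10 libraries. Adcy4 followed at 7.33 RPKM, Adcy7 at 6.16, Adcy9 at 2.43 and Adcy3 at 1.58. Adcy2 was close to the floor, with 137 counts over all libraries and 0 counts in NLC-MI 5, where the floor is 0.196 CPM.

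Adcy6 (ENSMUSG00000022994, GRCm38 chromosome 15 from 98589973 to 98610076, minus strand) was at 111, 161, 109, 205 and 232 CPM in NLC-MI replicates 1 to 5. In TgGRK5-MI it was at 115, 106, 104, 87.0 and 116 CPM. NLC-MI 2, 4 and 5 lay above every TgGRK5-MI library, NLC-MI 1 and 3 lay among them, and the TgGRK5-MI libraries were close together. The means were 164 ± 55.2 and 106 ± 11.7 CPM (SD, n = 5). The log2 fold change was -0.63 with standard error 0.22 (edgeR p = 0.0136, adjusted p = 1.00), and the exact two-sided permutation p of mean log2 CPM was 0.0714. Adcy6 was lower at an unadjusted p under 0.05 in all 18 alternative fits of edgeR, DESeq2 and limma-voom, leave-one-out fits included, with log2 fold changes from -0.76 to -0.48.

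Adcy9, a cyclase that is poorly stimulated by forskolin (ENSMUSG00000005580, chromosome 16 from 4287529 to 4420498, minus strand), showed the same 3 NLC-MI libraries on top. NLC-MI gave 10.7, 16.8, 10.2, 20.9 and 17.5 CPM, and TgGRK5-MI gave 14.4, 10.7, 9.995, 6.25 and 8.91 CPM. Its log2 fold change was -0.60 with standard error 0.26 (edgeR p = 0.0391, adjusted p = 1.00), and the exact permutation p was 0.0556. This call was less steady than that of Adcy6: it remained in only 3 of the 10 fits that left out 1 library, those without NLC-MI 1, NLC-MI 3 or TgGRK5-MI 1, and it was absent in a fit that left out the 3 shallowest libraries.

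The other 5 cyclases did not pass the test. The calcium-inhibited Adcy5, the closest relative of Adcy6, averaged 66.7 ± 17.3 CPM in NLC-MI and stood at 65.0 ± 15.3 CPM in TgGRK5-MI, with a log2 fold change of -0.04 and a 95% interval from -0.50 to 0.43. The ratio of Adcy6 to Adcy5 in RPKM, chosen after the values were seen and given without a test, was 2.52, 2.37, 2.29, 2.71 and 2.92 in NLC-MI. In TgGRK5-MI the ratio was 1.41, 1.88, 1.49, 2.00 and 2.07, so that every NLC-MI library lay above every TgGRK5-MI library. Adcy6 held 45.8 ± 9.04% of the summed cyclase RPKM in NLC-MI and 38.1 ± 4.12% in TgGRK5-MI, shares that overlap. Adcy7, the cyclase known from blood and immune cells, ran from 3.64 to 23.02% of the sum, and Adcy3 had log2 fold change -0.21 with an interval from -1.20 to 0.79. Adcy3 shares 1380 exon bases with Cenpo on the opposite strand, and whether the counting used strand is not given in the sources used here.

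**Figure D2:**
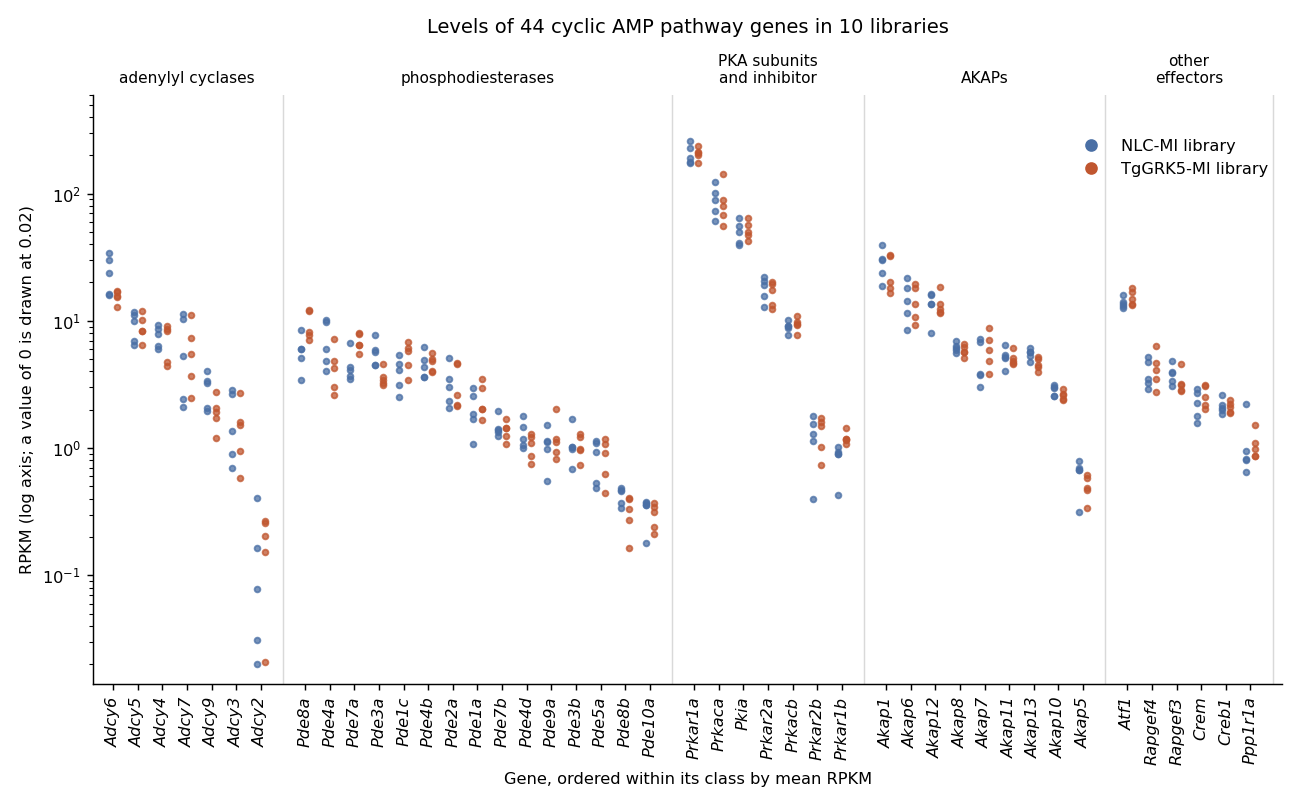
Levels of the 44 genes in each of 10 libraries as RPKM on a log axis, with NLC-MI in blue and TgGRK5-MI in orange, ordered within each class by the mean. The PKA regulatory subunit Prkar1a had the highest level of the 44 at a mean of 205 RPKM and Adcy2 the lowest at 0.158 RPKM, and the groups of nearly all genes overlap.

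Phosphodiesterases were spread over many forms at similar levels. Pde8a, the high-affinity cyclic AMP enzyme that common inhibitors spare, had the highest mean per length, at 7.61 RPKM. Pde4a followed at 5.67, Pde7a at 5.66, Pde3a at 4.65, Pde1c at 4.64 and Pde4b at 4.61 RPKM. This order depends on the exon length used, 4045 bases for Pde8a and 20067 for Pde1c. In CPM, Pde1c was above Pde8a, at 79.0 against 23.5 in NLC-MI and 107 against 38.1 in TgGRK5-MI. Pde2a, at 3.21 RPKM, shares most of its exon length with a readthrough gene, as given below, so its place in this order is uncertain. Pde8b and Pde10a were lowest at 0.368 and 0.311 RPKM. Of the 15, 2 were higher (1.77% of all genes tested were), 1 was lower (2.08%) and 12 did not pass the test. The median log2 fold change was 0.01.

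Pde3a, the phosphodiesterase that cyclic GMP inhibits and the target of milrinone (ENSMUSG00000041741, chromosome 6 from 141249269 to 141507448, plus strand), was at 57.5, 57.6, 75.6, 72.9 and 98.7 CPM in NLC-MI. In TgGRK5-MI it was at 58.4, 40.2, 46.3, 41.5 and 43.97 CPM. TgGRK5-MI 1 lay just above the 2 lowest NLC-MI libraries, and the other 4 TgGRK5-MI libraries lay below all of NLC-MI. The means were 72.5 ± 16.9 and 46.1 ± 7.29 CPM. The log2 fold change was -0.65 with standard error 0.18 (edgeR p = 0.00311, the smallest of the 44 genes, and adjusted p = 0.632), and the exact permutation p was 0.0238. Pde3a was lower in all 18 alternative fits, with log2 fold changes from -0.76 to -0.52. Its exons share 741 bases with Gm28523 on the opposite strand, which had 228 counts against 10331 for Pde3a. Pde3b, its paralog, was at 9.85 ± 3.40 and 9.49 ± 2.06 CPM, with a log2 fold change of -0.06.

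Pde7a, a cyclic AMP-specific enzyme (ENSMUSG00000069094, chromosome 3 from 19223108 to 19311322, minus strand), was at 33.3, 31.5, 27.1, 28.4 and 51.8 CPM in NLC-MI and at 50.3, 42.8, 62.0, 50.1 and 61.4 CPM in TgGRK5-MI. Only NLC-MI 5 reached the TgGRK5-MI range, and the other 4 NLC-MI libraries lay below all of TgGRK5-MI. The log2 fold change was 0.63 with standard error 0.19 (edgeR p = 0.00687, adjusted p = 0.899), and the exact permutation p was 0.0317. It was called in 17 of the 18 alternative fits, and in the 18th, of the 7 deepest libraries, the log2 fold change was 0.50 and missed the threshold.

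Pde8a (ENSMUSG00000025584, chromosome 7 from 81213596 to 81334533, plus strand) was at 20.8, 24.2, 34.3, 24.4 and 13.8 CPM in NLC-MI and at 32.8, 28.7, 48.0, 49.4 and 31.5 CPM in TgGRK5-MI. NLC-MI 3 lay within the TgGRK5-MI range and the other 4 NLC-MI libraries below it. Between the groups, the log2 fold change was 0.70 with standard error 0.24 (edgeR p = 0.0138, adjusted p = 1.00), the exact permutation p was 0.0317, and all 18 alternative fits called it.

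**Figure D3:**
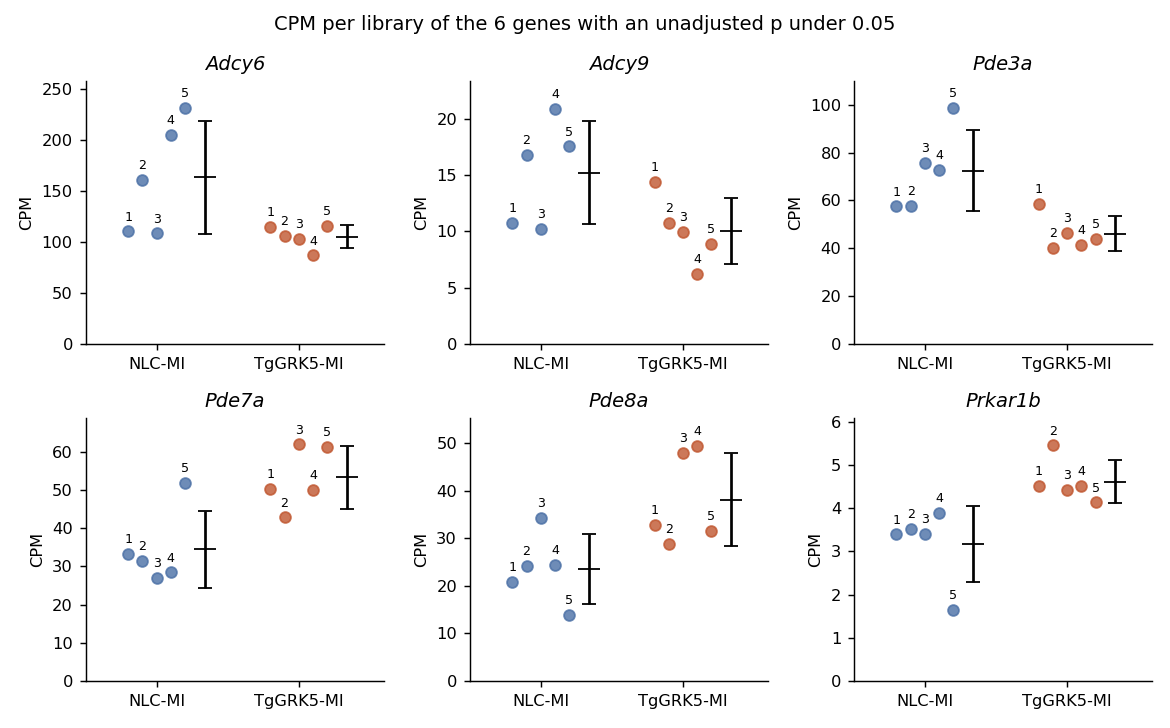
CPM in each library of Adcy6, Adcy9, Pde3a, Pde7a, Pde8a and Prkar1b, which passed the unadjusted threshold, with the replicate number above each point and the mean ± SD (n = 5) beside it, on axes that start at 0. The groups share values in 5 of the genes, and in Prkar1b the TgGRK5-MI libraries, from 4.13 CPM, lie above the NLC-MI libraries, which reach 3.89 CPM.

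The direction thus differed among the phosphodiesterases, and their proportions are shown by ratios chosen after the values were seen and given without a test. Pde3a over Pde7a in RPKM was 1.05, 1.11, 1.70, 1.56 and 1.16 in NLC-MI and 0.706, 0.571, 0.455, 0.504 and 0.436 in TgGRK5-MI. In RPKM, Pde3a was thus above Pde7a in every NLC-MI library and below it in every TgGRK5-MI library. Which gene is above the other depends on the exon lengths used, and in CPM Pde3a was above Pde7a in TgGRK5-MI 1 (58.4 against 50.3). The ratio of Pde3a to Pde8a was 1.11 ± 0.655 in NLC-MI and 0.405 ± 0.120 in TgGRK5-MI, without overlap. As shares of the summed phosphodiesterase RPKM, Pde3a made up 13.2 ± 2.56% and 7.95 ± 1.55%, Pde8a 13.4 ± 3.45% and 20.2 ± 2.66%, and Pde7a 10.4 ± 3.00% and 15 ± 2.00% in NLC-MI and TgGRK5-MI.

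**Figure D4:**
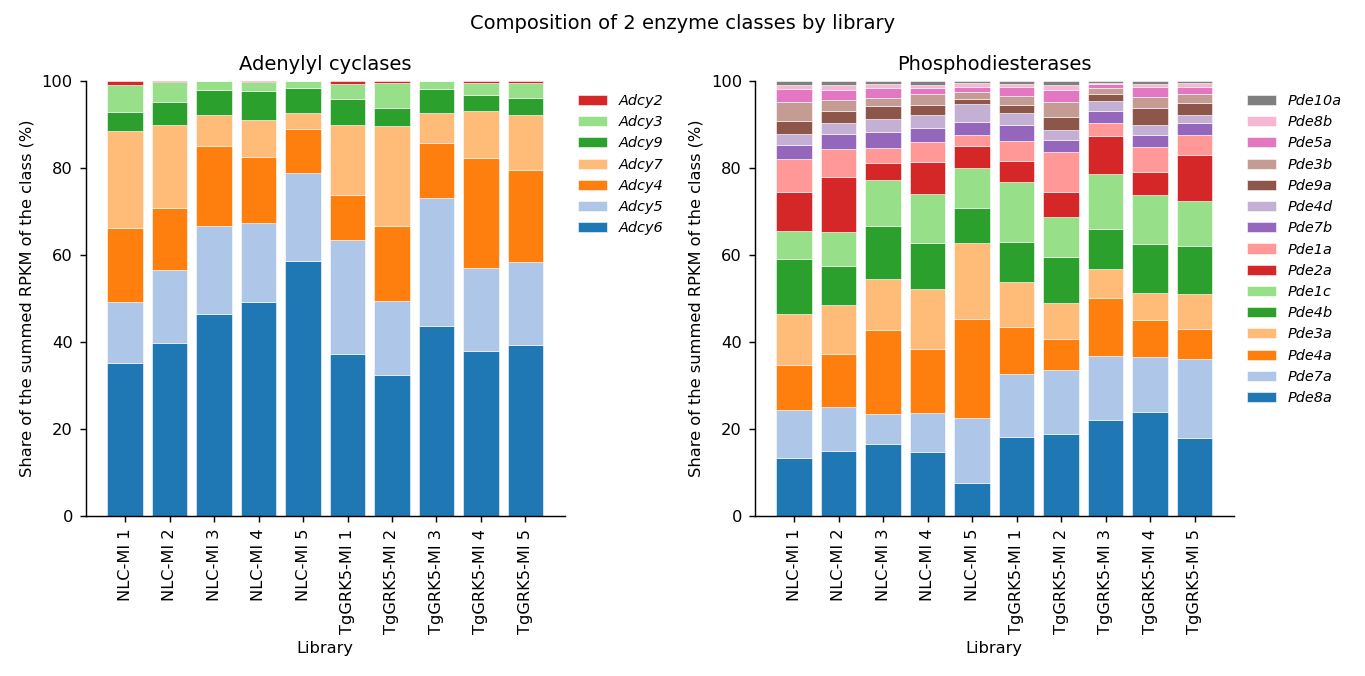
Stacked bars of each gene's share of the summed RPKM of its class in each library, for 7 adenylyl cyclases and 15 phosphodiesterases. Pde2a enters without the counts of Gm45837, a readthrough gene that overlaps it. Adcy6 held from 32.3 to 58.7% of the cyclase sum, and the bars of Pde8a and Pde7a together take a larger part in the TgGRK5-MI libraries while that of Pde3a is smaller.

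Pde4a and Pde1c were the nearest to the threshold among the remaining phosphodiesterases. Pde4a, of the rolipram-sensitive family, was at 30.6, 37.2, 75.2, 46.2 and 77.8 CPM in NLC-MI and at 36.8, 20.1, 54.9, 32.5 and 22.9 CPM in TgGRK5-MI, with a log2 fold change of -0.68 (edgeR p = 0.0591, exact permutation p = 0.119). It passed in 8 of the 18 alternative fits. Pde1c, a calmodulin-dependent enzyme that hydrolyses both cyclic nucleotides, was at 79.0 ± 23.02 and 107 ± 27.3 CPM, with a log2 fold change of 0.44 and a 95% interval from -0.08 to 0.96. The other Pde4 members, Pde4b and Pde4d, had log2 fold changes of 0.05 and -0.31, and neither passed the test. Pde5a, Pde9a and Pde10a, which act on cyclic GMP alone or on both nucleotides, had log2 fold changes of 0.02, 0.19 and -0.14, and Pde7b and Pde8b, the paralogs of the genes that were higher, had -0.09 and -0.40.

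Pde2a, the enzyme that cyclic GMP stimulates, cannot be counted apart from the readthrough gene Gm45837, which shares 3955 bases or 64.3% of its exon length on the same strand and drew 11306 counts against 3572. Pde2a alone averaged 19.7 ± 7.31 CPM (NLC-MI) and 19.8 ± 7.77 CPM (TgGRK5-MI). The sum of both genes was at 79.1 ± 6.999 and 87.4 ± 7.84 CPM, values that overlap. The order of phosphodiesterase levels and the shares of their summed RPKM given above use Pde2a alone.

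The 3 highest levels per length among the 44 genes were those of 2 PKA subunits and the PKA inhibitor. Prkar1a, the regulatory subunit RIα (ENSMUSG00000020612, chromosome 11 from 109649405 to 109669656, plus strand), was at 205 RPKM, above the catalytic subunit Prkaca at 88.0 RPKM and the inhibitor Pkia at 51.0 RPKM. Its values were 818, 768, 978, 1110 and 747 CPM (NLC-MI) and 1026, 745, 916, 862 and 895 CPM (TgGRK5-MI), and the groups overlapped fully. The log2 fold change was 0.01 with a 95% interval from -0.39 to 0.41, and Prkar1a made up 91.0 ± 1.17% and 91.5 ± 0.92% of the regulatory subunit RPKM. RIIα (Prkar2a) made up 8.09 ± 1.42% and 7.33 ± 1.05%.

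Prkar1b, the RIβ subunit best known from brain (ENSMUSG00000025855, chromosome 5 from 139017306 to 139150001, minus strand), was rare, with 694 counts over all libraries and under 1% of the regulatory RPKM. It was at 3.39, 3.52, 3.40, 3.89 and 1.64 CPM in NLC-MI and at 4.52, 5.45, 4.43, 4.52 and 4.13 CPM in TgGRK5-MI. It was the only 1 of the 44 genes whose groups did not overlap, as did 1.0% of all genes tested. The log2 fold change was 0.54 with standard error 0.24 (edgeR p = 0.0410, adjusted p = 1.00), and the exact permutation p was 0.00794, the smallest that 5 against 5 can give. The edgeR call was lost in 8 of the 10 fits that left out 1 library and held without NLC-MI 4 or without TgGRK5-MI 5. Prkar1b shares 341 exon bases on its strand with Gm15672, which had 57 counts.

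None of the other PKA genes passed the test. Prkaca was at 222 ± 60.1 and 216 ± 84.3 CPM, Prkacb at 78.8 ± 7.27 and 82.8 ± 9.52 CPM and Pkia at 186 ± 39.1 and 194 ± 31.5 CPM in NLC-MI and TgGRK5-MI. Prkaca made up 90.4 ± 2.61% of the catalytic RPKM in NLC-MI and 89.4 ± 3.03% in TgGRK5-MI. Summed regulatory over summed catalytic RPKM was 2.38 ± 0.577 in NLC-MI and 2.49 ± 0.576 in TgGRK5-MI.

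The promoters shown here were read from RefSeq (GRCm38.p6) because the cyclic AMP response element, the site bound by CREB family factors, is the element through which this pathway acts on genes. A window from 250 bases before to 50 after the start site was found for 35 of the 44 genes, and Adcy6, Pde3a and Pde7a are among the 9 without one. The full element TGACGTCA, which reads the same on both strands, was found in the window of 1 of the 35, Prkar1a, and in 2.03% of all genes with a window. The half-site TGACG, searched on both strands and contained in the full element, was in 16 of the 35 (45.7%) and in 23% of all genes with a window. Those genes were not limited to the ones past the filter on low counts, which all 44 passed, so these shares are not like for like. The 250 bases before the start are given below for Prkar1a, the most abundant of the 44, and for the 3 genes among the 6 above that have a window. Capitals mark the full element in Prkar1a and the half-site in the other 3. A further half-site in the Prkar1a sequence is left in lower case.

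Prkar1a: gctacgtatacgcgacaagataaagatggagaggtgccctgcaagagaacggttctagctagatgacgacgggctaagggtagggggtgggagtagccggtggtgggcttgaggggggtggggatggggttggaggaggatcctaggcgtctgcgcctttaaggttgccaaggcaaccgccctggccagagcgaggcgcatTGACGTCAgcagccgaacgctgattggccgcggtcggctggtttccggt
Prkar1b: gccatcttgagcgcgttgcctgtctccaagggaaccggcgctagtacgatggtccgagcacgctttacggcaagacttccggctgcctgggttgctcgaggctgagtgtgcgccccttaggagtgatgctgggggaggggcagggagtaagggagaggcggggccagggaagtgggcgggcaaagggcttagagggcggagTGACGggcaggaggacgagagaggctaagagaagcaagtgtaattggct
Pde8a: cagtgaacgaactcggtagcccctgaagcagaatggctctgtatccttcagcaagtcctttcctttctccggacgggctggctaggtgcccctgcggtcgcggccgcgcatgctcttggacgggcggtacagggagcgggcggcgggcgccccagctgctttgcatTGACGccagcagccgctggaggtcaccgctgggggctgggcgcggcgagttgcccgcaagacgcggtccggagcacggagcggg
Adcy9: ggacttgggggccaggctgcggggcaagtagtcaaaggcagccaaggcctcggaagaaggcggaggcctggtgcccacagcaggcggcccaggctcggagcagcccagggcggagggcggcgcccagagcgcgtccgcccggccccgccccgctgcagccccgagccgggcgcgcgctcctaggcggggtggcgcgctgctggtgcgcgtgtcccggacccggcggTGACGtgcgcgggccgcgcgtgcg

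These lie at chr11:109650699-109650948 (plus strand), chr5:139150002-139150251 (minus), chr7:81213015-81213264 (plus) and chr16:4420499-4420748 (minus). The first base of the capitals lies at -49 from the start in Prkar1a and Prkar1b, -84 in Pde8a and -24 in Adcy9. The half-site was thus present in a gene that was lower, in genes that were higher and in Prkar1a, which did not pass the test. A match in these letters is a description of the sequence and does not show that a factor binds.

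AKAPs showed no gene past the unadjusted threshold in either direction (0 of 9, beside 3.85% of all genes tested). Their median log2 fold change was -0.07, with a range from -0.34 to 0.31. Akap1, the anchor at the mitochondrial outer membrane (ENSMUSG00000018428, chromosome 11 from 88830792 to 88864586, minus strand), had the highest level at 26.3 RPKM. It was at 82.9, 104, 133, 133 and 172 CPM in NLC-MI and at 146, 79.8, 141, 73.0 and 88.8 CPM in TgGRK5-MI, with a log2 fold change of -0.24 and a 95% interval from -0.78 to 0.30. TgGRK5-MI 1 and 3 lay near the top of NLC-MI and the other 3 near or below its lowest library. Akap6, which encodes the nuclear envelope anchor mAKAP, was next at 14.5 RPKM, with 220 ± 77.9 and 211 ± 65.9 CPM. Akap13, or AKAP-Lbc, was at 115 ± 10.8 and 95.7 ± 10.2 CPM with a log2 fold change of -0.26 (edgeR p = 0.0593, exact permutation p = 0.0317), and 4 of the 18 alternative fits called it. Akap8, Akap10 and Akap11 varied little, with coefficients of variation from 7.70 to 16.6%, and Akap12 had log2 fold change 0.01. Akap7, known for its link to phospholamban, was at 21.5 ± 8.33 and 26.6 ± 8.51 CPM, and Akap5 at 4.29 ± 1.23 and 3.40 ± 0.75 CPM.

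The other effectors likewise had 0 of 6 genes past the threshold (beside 3.85% of all genes tested), and their log2 fold changes ran from -0.21 to 0.21. Atf1, a CREB family factor (ENSMUSG00000023027, chromosome 15 from 100227819 to 100261244, plus strand), had the highest level at 14.6 RPKM. It was at 41.8, 38.5, 39.9, 42.8 and 48.7 CPM in NLC-MI and at 45.1, 40.5, 55.3, 51.9 and 41.6 CPM in TgGRK5-MI, groups that overlapped. Creb1 was at 29.5 ± 4.03 and 28.8 ± 2.77 CPM with a 95% interval of the log2 fold change from -0.33 to 0.26, and Crem, which also yields the repressor ICER, at 13.2 ± 3.31 and 15.3 ± 2.99 CPM. Rapgef3 and Rapgef4, the Epac1 and Epac2 genes, had log2 fold changes of -0.21 and 0.13, and Ppp1r1a, inhibitor 1 of protein phosphatase 1, was rare at 1.42 ± 0.83 and 1.40 ± 0.36 CPM.

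Genes around the 44 were taken from 3 lists written from general knowledge, with earlier results of these data known. Their shares beside all genes tested are thus a description and not an independent test. Of 57 other cyclic AMP genes, 45 were tested, with a median log2 fold change of -0.06. Among the 45, 1 was higher (1.77% of all genes tested were) and 2 were lower (2.08%). Adcy1, a calmodulin-stimulated cyclase, was higher at 2.29 ± 0.75 against 4.34 ± 2.20 CPM (log2 fold change 0.95, edgeR p = 0.0294, exact permutation p = 0.119), and its call was lost without NLC-MI 1, NLC-MI 4, NLC-MI 5 or TgGRK5-MI 1. The exchange factor Rapgef1 was lower at 161 ± 37.4 against 120 ± 12.2 CPM (-0.42, edgeR p = 0.0243, exact permutation p = 0.0238), a call lost without NLC-MI 4 or TgGRK5-MI 4 and in the 7 deepest libraries. The pacemaker channel subunit Hcn4, which cyclic AMP modulates, was lower at 6.24 ± 2.83 against 1.76 ± 0.65 CPM (-1.82, edgeR p = 0.000302, adjusted p = 0.208), and its groups did not overlap (exact permutation p = 0.00794).

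The next list held 16 genes of PKA substrates in cardiomyocytes and of proteins that act with them. Of the 16, 4 were lower (2.08% of all genes tested were) and 0 higher (1.77%), with a median log2 fold change of -0.23. They were the ryanodine receptor Ryr2, at 1489 ± 538 against 783 ± 184 CPM (-0.93, edgeR p = 0.00903, exact permutation p = 0.0476), the L-type calcium channel subunit Cacna1c, at 210 ± 74.1 against 123 ± 28.1 CPM (-0.77, edgeR p = 0.0122, exact permutation p = 0.0476), the phosphorylase kinase subunit Phkg1, at 19.2 ± 8.02 against 9.13 ± 1.14 CPM (-1.07, edgeR p = 0.00178, exact permutation p = 0.0159), and the calcium channel regulator Rrad, at 368 ± 92.7 against 227 ± 37.7 CPM (-0.70, edgeR p = 0.00418, exact permutation p = 0.0159). All 4 had adjusted p above the threshold, from 0.501 to 1.00. Phkg1 encodes the catalytic subunit of phosphorylase kinase, while PKA phosphorylates the subunits encoded by Phka1 and Phkb. Those genes, also on the list, had log2 fold changes of -0.27 and 0.15 and did not pass the test. Ryr2 and Tnni3 are also among the 8 cardiomyocyte markers. Those markers had a median log2 fold change of -0.15, with 5 below 0 and 3 above, and 1, Ryr2, was lower and 0 higher at the unadjusted threshold. NLC-MI 1 had the lowest sum of cardiomyocyte markers, 44538 CPM. It lay within the TgGRK5-MI range for Ryr2 and Cacna1c, above all but 1 of TgGRK5-MI for Rrad and above all 5 for Phkg1. TgGRK5-MI 2 had the next lowest sum, 47344 CPM. It was the lowest of its group for Ryr2, Cacna1c and Phkg1 but not for Rrad. These are single libraries, and the part of cardiomyocyte content in the values of this list was not tested.

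Of 24 CREB target genes, 22 were tested (Crem among them), 4 were lower and 0 higher, beside the same 2.08% and 1.77% of all genes tested. Of the 22, 20 had a log2 fold change below 0, as had 49.8% of all genes tested, and the median was -0.42. The 4 are immediate early genes: Fos at 191 ± 107 against 75.3 ± 9.67 CPM (-1.34, edgeR p = 0.00177, exact permutation p = 0.00794), Junb at 190 ± 47.8 against 113 ± 30.1 CPM (-0.75, edgeR p = 0.00436, exact permutation p = 0.0159), Ier2 at 62.8 ± 16.2 against 44.3 ± 11.5 CPM (-0.50, edgeR p = 0.0441, exact permutation p = 0.0635) and Arc at 8.01 ± 7.81 against 3.44 ± 1.29 CPM (-1.18, edgeR p = 0.0355, exact permutation p = 0.0952). The groups of Fos did not overlap, which was so for 1.0% of all genes tested. Arc rested on NLC-MI 3, at 22.0 CPM, without which its log2 fold change was -0.40, short of the threshold, and its call was also lost without TgGRK5-MI 1, 2 or 4 and in the 7 deepest libraries. The call of Ier2 held in only 3 of the 10 fits that left out 1 library, those without NLC-MI 2, NLC-MI 4 or TgGRK5-MI 3, and was likewise lost in the 7 deepest. Many factors besides CREB act on these genes, and these genes also respond to cell isolation. The part of CREB, of other factors or of isolation in these values was not tested. By edgeR, none of the genes named in these 3 lists passed the adjusted threshold. By DESeq2, which gave 69 genes an adjusted p under 0.10 where edgeR gave 12, Hcn4 (adjusted p = 0.000899), Fos (adjusted p = 0.0349) and Phkg1 (adjusted p = 0.0528) passed it. On simulated counts 23.5% of the genes that DESeq2 called at this threshold were false, against 10.2% of those called by edgeR. The counts were simulated once, from edgeR's dispersion trend without scatter of single genes around it. They cannot give the false share in the real data or for these 3 genes.

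**Figure D5:**
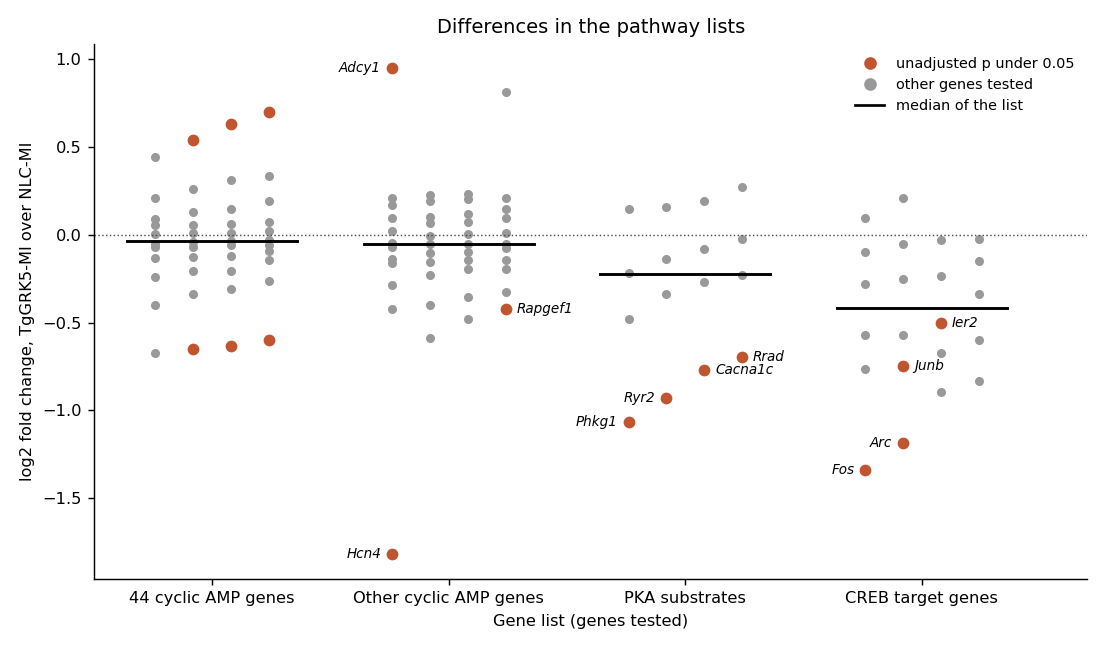
log2 fold changes of the genes tested in 4 lists, with the median of each list as a black bar and genes with an unadjusted p under 0.05 in orange. The medians lie at -0.04 for the 44 genes, -0.06 for the 45 other cyclic AMP genes, -0.23 for the 16 genes of the PKA substrate list and -0.42 for the 22 CREB targets, beside 0.00 over all genes tested.

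The levels of the 44 genes were set beside the cell type makeup of the libraries, after the data were seen, as 176 correlations of log2 CPM with the log2 summed CPM of cardiomyocyte, fibroblast, macrophage and endothelial markers over the 10 libraries. With Benjamini-Hochberg adjusted permutation p under 0.05 for both Pearson's r and Spearman's rho, 10 genes moved with cardiomyocyte markers (7 up, 3 down), 7 with fibroblast markers (4 up, 3 down), 9 with macrophage markers (4 up, 5 down) and 3 with endothelial markers (2 up, 1 down). By this rule 16 of the 44 genes moved with at least 1 of the 4 sums and 28 with none. Prkaca followed the cardiomyocyte sum (r = 0.932, permutation p = 0.00016, adjusted 0.00939; rho = 0.952, adjusted permutation p = 0.0111), with r = 0.968 after the 2 libraries farthest from the median were left out and r = 0.978 in the 7 deepest libraries. Adcy7 followed the fibroblast sum (r = 0.957, permutation p = 0.00019, adjusted 0.00939, and rho = 0.939, adjusted permutation p = 0.0111). Its r was 0.928 without the 2 libraries farthest from the median of the fibroblast sum and 0.972 in the 7 deepest. The farthest libraries were found for each sum on its own and differed between sums. Pde4a was lower where the macrophage sum was higher (r = -0.915, permutation p = 0.00042, adjusted 0.00939, and rho = -0.927, adjusted permutation p = 0.0111). Its r was -0.843 without the 2 libraries farthest from the median of the macrophage sum and -0.909 in the 7 deepest. The 3 shallowest libraries were too few for a value of their own.

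None of the 6 genes that differed between the groups was among these. Pde3a came nearest, with r = -0.740 against the macrophage sum (permutation p = 0.0160, adjusted 0.0717, and rho = -0.794, permutation p = 0.00930, adjusted 0.0468). This r was -0.627 without the 2 farthest libraries and -0.897 in the 7 deepest. With the cardiomyocyte sum, r of Pde3a was 0.621 (adjusted permutation p = 0.171) and rho was 0.685 (adjusted permutation p = 0.121). In the 7 deepest libraries that r was 0.848. For the other 5 genes, r with the 4 sums ran from -0.615 to 0.546, and the smallest adjusted permutation p was 0.171. In the 7 deepest libraries r ran from -0.860 to 0.818 for these 5 genes, with Adcy6 at 0.818 for the cardiomyocyte and -0.860 for the macrophage sum and Adcy9 at 0.702 and -0.775. These values are given without a test, and the part of either sum in the values of Adcy6 and Adcy9 was not tested. All 8 macrophage markers had a log2 fold change above 0 (0.09 to 0.54, none past the threshold). The macrophage sum ran from 651 to 2044 CPM in NLC-MI and from 1083 to 2307 CPM in TgGRK5-MI. The part of the macrophage or the cardiomyocyte sum in the value of Pde3a was not tested.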

How the data were processed

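RNA of cardiomyocytes from 5 NLC-MI and 5 TgGRK5-MI mice, isolated 4 days after MI with Trizol, was made into libraries with a TruSeq RNA kit. The authors deposited a table of estimated counts per Ensembl gene (expected counts as RSEM gives them, whole numbers, not normalized), and the submitters' processing notes name Bowtie2, RSEM 1.2.31, DESeq2 and the build mm10. The strand setting and the annotation version are not given in the sources used here. Libraries held 7968779 to 23381527 counts, and 51596 of 51789 identifiers were in GENCODE M21. Estimated counts split reads between genes that share sequence, so values of overlapping genes are less certain, and the intervals here leave that out.

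Counts were analysed in R 4.3.3 with edgeR 4.0.16: TMM factors, filterByExpr by group (15232 of 28506 genes with a total above 0), its quasi-likelihood test, with p adjusted after Benjamini and Hochberg over all genes tested. RPKM is CPM per kilobase of merged exons. The merged exons are those of all annotated transcripts of a gene, so ranks and shares between genes depend on that length. Single genes also got an exact permutation test, two-sided, of their mean log2 CPM (prior count 2). Correlations used 100000 permutations. Alternatives were RLE factors, library size alone, DESeq2 1.42.0, limma-voom (limma 3.58.1), other filters, the replicate number as a block, leaving out each library in turn, a prior count of 0.5 and, added after the data were seen, the 7 deepest libraries. On simulated counts edgeR recovered 45% of genes changed by a log2 fold change of 1 and 78% of those changed by 1.5. The log2 fold changes of the 44 genes ran from -0.68 to 0.70, and recovery at such smaller sizes was not simulated.

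The 44 genes and the lists were chosen with earlier results of these data known. Values per library are given where one of the 44 had an unadjusted p under 0.05 and for the gene with the highest mean RPKM of each class. Genes of other lists are named where the unadjusted p is under 0.05, and 1 gene taken out of the list of other cyclic AMP genes is not reported here. Pde4a per library, and the genes used in ratios, were chosen after their values were seen.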

Additional observations from a re-analysis of the deposited data

Results flagged for a closer look

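In groups of 5 libraries, 1 library stood far from the other 4 (by Dixon's test) in 8 of the 110 gene and group combinations examined, and chance gives about 1 in 20. NLC-MI 5 was low for Prkar1b at 1.64 CPM (3.39 to 3.89 CPM in the rest of its group), for Pde10a at 2.29 CPM and for Akap12 at 51.5 CPM. NLC-MI 4 was low for Akap5 at 2.16 CPM. NLC-MI 3 was high for Pde7b at 24.2 CPM and, among the CREB targets, for Arc at 22.0 CPM. In TgGRK5-MI, replicate 3 was low for Adcy2 at 0.0869 CPM, which is 1 count, and replicate 5 was high for Rapgef3 at 29.2 CPM. Of the 6 genes that differed between the groups, Prkar1b is the only one with such a library, and without NLC-MI 5 its log2 fold change was 0.37, short of the unadjusted threshold.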

How the results depend on the processing

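The count of 6 genes with an unadjusted p under 0.05 lay between 4 and 8 over the 18 alternatives. The 3 lower genes became 5 with DESeq2 and 2 to 5 when 1 library was left out (5 without NLC-MI 1). The 3 higher genes became 1 in the 7 deepest libraries (without NLC-MI 3, TgGRK5-MI 3 and TgGRK5-MI 4), and 2 to 3 when 1 library was left out. No alternative gave 1 of the 44 genes an adjusted p under 0.10, with a count of 0 in each. Adcy6, Pde3a and Pde8a were called in all 18 alternatives, Pde7a in 17, and none of the 6 changed direction. Of the 38 genes not called, 20 changed sign in at least 1 alternative and 4 (Pde1c, Pde4a, Akap5 and Akap13) were called in at least 1. A prior count of 0.5 left the exact permutation p of each of the 6 genes as it was.

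Replicate numbers were shared between the groups, but same-numbered libraries came from different mice. Their deviations correlated at 0.0717, 0.662, 0.381, -0.341 and 0.0848, with a mean of 0.172 against -0.0274 for libraries of different number. The labels do not say whether a number marks anything shared, and the numbers were not taken as a pairing in the main fit. With the replicate block, 6 of the 44 genes were called, 3 higher and 3 lower: Adcy9 was lost and Pde4a gained, and over all genes 604 passed the unadjusted threshold and 8 the adjusted one, where 586 and 12 did without it. The depth limits Adcy2, with 0 or 1 count in 3 libraries, more than any other of the 44 genes.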
